A study of Saccharomyces cerevisiae with 6 samples.

Results

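The 10 genes described here encode 5 proteins of the large ribosomal subunit that ring the mouth of the tunnel through which a new protein leaves the ribosome: RPL17A and RPL17B, RPL19A and RPL19B, RPL26A and RPL26B, RPL31A and RPL31B, and RPL35A and RPL35B. They were chosen by name, as the intron-containing gene pairs for these rim proteins, and are 10 of the 239 genes in the deposited table. RNA of budding yeast carrying the S2197F change in Prp8, a large protein that holds the active site of the spliceosome, was compared with RNA of wild type yeast on 2-colour arrays. In the mutant and the wild type strains alike, the chromosomal PRP8 gene had been deleted and the only PRP8 gene, S2197F or wild type, sat on a centromeric plasmid, which carried a HIS marker in the mutant. Cells of both genotypes grew in rich medium (YEPD) at 37 °C to an OD600 of about 0.7, so the data hold 1 allele at 1 temperature. Each of 3 independent pairs of cultures was hybridised on a pair of arrays with the dyes exchanged, giving 6 arrays and n = 3.

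Ribosomal proteins at the exit port shape the place where a nascent chain first meets the cytosol, and several of them serve as landing sites for the factors that fold, modify or target the chain. Budding yeast keeps an unusually large share of its introns in ribosomal protein genes, and most of these genes survive as 2 copies, A and B, that encode the same or nearly the same protein but differ in their introns. Splicing of such a transcript removes the intron and joins the exons, so each gene was read with an intron feature (pre-mRNA in the words of the labels), an exon junction feature (mature mRNA) and an exon feature (total mRNA). Splicing intermediates and excised introns also bind an intron feature, so its signal is not that of unspliced transcripts alone. Exon and junction features of near-identical copies cannot be assumed to tell the copies apart, since the probe sequences were not used here. The same limit holds for differences that subtract an exon or junction value.

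All values are ratios of S2197F to wild type on a log scale taken as log2, with positive values for more signal in the mutant. The mean ratio is given with limma's standard error, and p-values are limma's, adjusted over all features of the class by the Benjamini-Hochberg method, with 0.05 as the threshold. A p-value here sets a mean against the spread between 3 pairs of cultures. For each feature limma takes most of that spread from all features of the fit, and the rest from its own replicates. In some fits, among them several with 1 replicate left out, all of it comes from the features of the fit. Of the 30 possible values per class, 27 were present for introns, 27 for junctions and 30 for exons. RPL26B had no intron value in any replicate, so intron results cover 9 of the 10 genes. Junction values were missing in replicate 3 for RPL17B and RPL19A, and in replicate 1 for RPL35A.

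Intron signal rose in S2197F for 4 of the 9 measured rim genes, RPL17A, RPL17B, RPL19B and RPL35A, and fell for 0. These 4 introns were 1.48 to 1.77 times as bright in the mutant as in wild type. Across the whole table, 23.5% of 251 intron features rose, and 0 fell. The rim genes thus had a share of calls above that of the table, but close to that of other ribosomal protein genes: intron signal rose for 20 of 48 features (41.7%) of other large subunit genes and for 21 of 46 features (45.7%) of small subunit genes, against 14 of 148 features (9.46%) of all other genes. The median of the mean intron ratios was 0.55 for the rim genes, 0.51 for other large subunit genes, 0.57 for small subunit genes and 0.15 for all other genes.

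RPL17A encodes a protein whose long loop reaches into the tunnel wall, and it had the highest mean intron ratio of the 9. The RPL17A intron ratios were 1.46, 0.48 and 0.55 in replicates 1, 2 and 3, a mean of 0.83 ± 0.22 (SE, n = 3), or 1.77-fold (limma adjusted p = 0.039). The RPL17B intron gave 1.26, 0.38 and 0.48, a mean of 0.71 ± 0.21 or 1.63-fold (limma adjusted p = 0.043). For both copies all 3 values lay above 0, and replicate 1 stood well above the other two. The mean of the RPL17A intron was higher than that of 90.8% of all intron features.

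RPL19A and RPL19B encode a protein with a long helical tail that extends along the surface of the large subunit towards the small one. The RPL19B intron ratios were 1.09, 0.57 and 0.56, a mean of 0.74 ± 0.18 (SE, n = 3), or 1.67-fold (limma adjusted p = 0.029). The RPL19A intron gave 0.81, 0.56 and 0.28, a mean of 0.55 ± 0.17, and missed the threshold (limma adjusted p = 0.051). It passed under several other settings, among them centring on the exon medians (0.68, limma adjusted p = 0.017) and leaving out replicate 3 (0.68, limma adjusted p = 0.034). The fit without replicate 3 took its spread from all features, so the distance between 0.81 and 0.56 did not enter it. The RPL19A intron did not pass without replicate 1 (0.42, limma adjusted p = 0.21) or without replicate 2 (0.54, limma adjusted p = 0.23). All values of both copies were positive.

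RPL35A and RPL35B encode the rim protein next to the docking site of the signal recognition particle and the translocon. The RPL35A intron ratios were 0.78, 0.40 and 0.53, a mean of 0.57 ± 0.16 (SE, n = 3), or 1.48-fold (limma adjusted p = 0.042). The RPL35B intron gave 0.50, 0.18 and 0.053, a mean of 0.24 ± 0.17 that did not pass (limma adjusted p = 0.33). All 6 values were above 0, and in each replicate the A copy was above the B copy, a difference that is tested further on.

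The introns of the remaining 3 measured genes had small mean ratios, none of which passed. Rpl31 is the rim protein that anchors the ribosome-associated chaperone complex through Zuo1, and Rpl26 sits at the port near the tunnel's edge. The RPL31A intron gave 0.20, 0.12 and -0.0012 (0.11 ± 0.15, SE, n = 3; limma adjusted p = 0.66). The RPL31B intron gave 0.29, 0.37 and 0.14 (0.27 ± 0.16; limma adjusted p = 0.26). The RPL26A intron gave 0.40, 0.38 and -0.12 (0.22 ± 0.17; limma adjusted p = 0.39). RPL31A was near 0 in every replicate, and RPL26A was positive in 2 replicates and negative in the third.

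**Figure D1:**
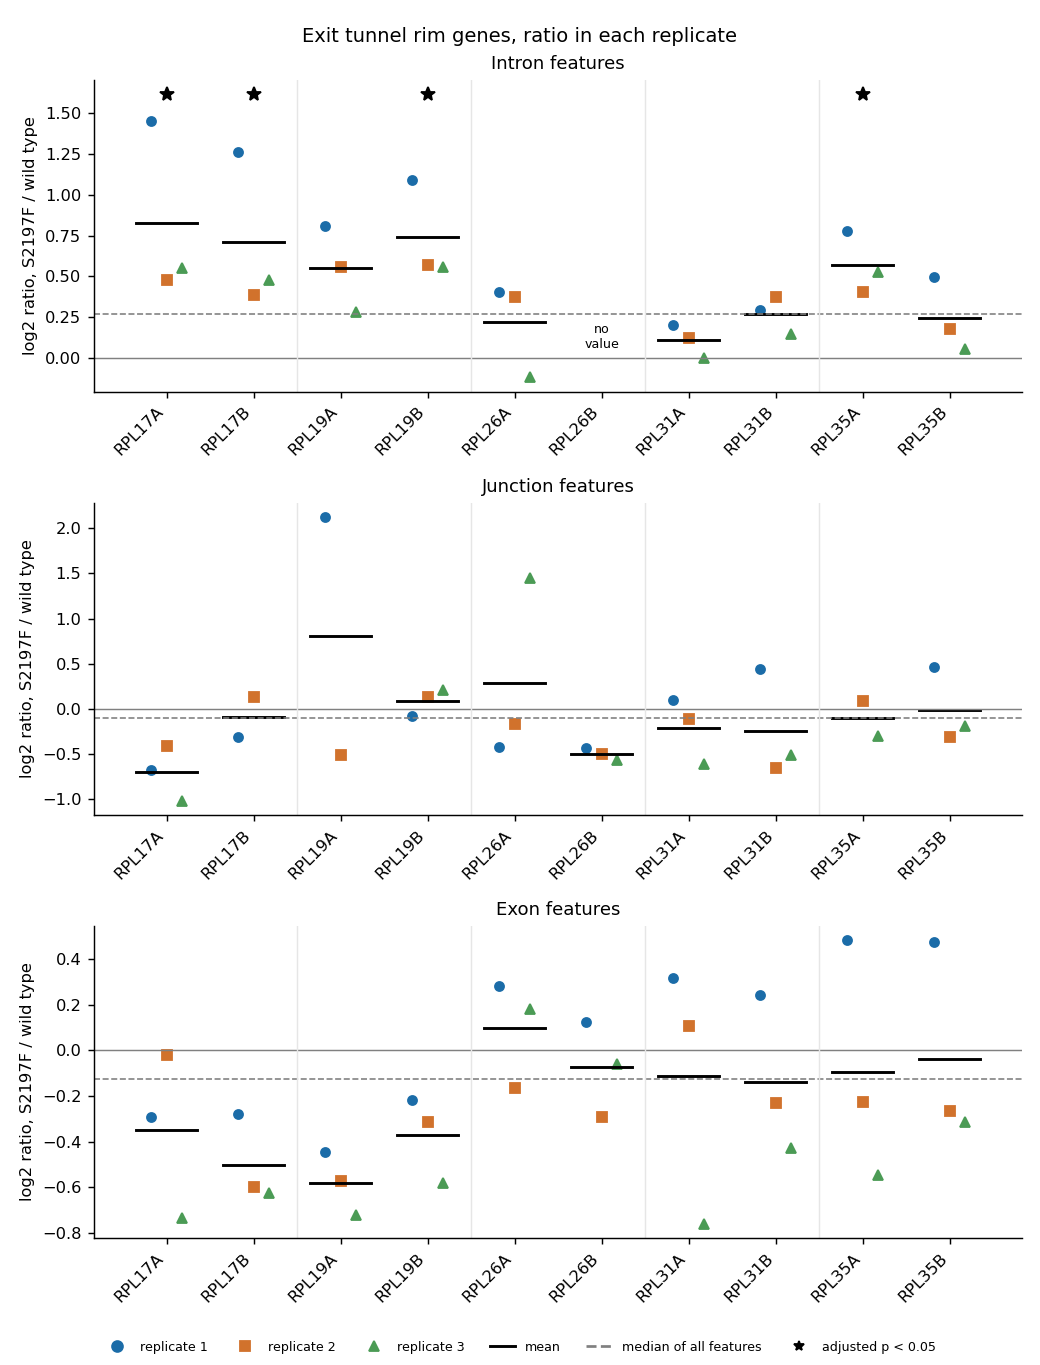
Log2 ratio of S2197F to wild type (vertical axes) for each of the 10 genes, with one panel each for intron, junction and exon features. Symbols are the 3 replicates, bars their means, the dashed line the median of all features of the class, and stars mark features with a limma adjusted p under 0.05. Stars stand over RPL17A, RPL17B, RPL19B and RPL35A in the intron panel and over no gene in the other panels.

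Ordered by mean intron ratio, the genes ran RPL17A, RPL19B, RPL17B, RPL35A, RPL19A, RPL31B, RPL35B, RPL26A and RPL31A. The replicate values of every neighbouring pair in this order overlapped. The widest step lay between RPL19A and RPL31B, where the means differed by 0.28 and RPL19A was higher in 3 of 3 replicates. Intron ratios were above 0 in all 3 replicates for 7 of the 9 rim genes, the exceptions being RPL26A and RPL31A, and 51.4% of all complete intron features met the same condition. It was met by 39 of 48 features of other large subunit genes and 38 of 46 of small subunit genes. Among all other genes it was met by 42 of 142. Intron ratios were below 0 in all 3 replicates for 0 of the 9, against 4.49% of all complete intron features. The calls depended on which replicates were used. Without replicate 1 or without replicate 2, 0 of the 9 passed (whole table: 35 of 245 and 2 of 245). Without replicate 3 the 4 genes that passed were RPL17A, RPL17B, RPL19A and RPL19B, while RPL35A had a limma adjusted p of 0.066. In the fits without replicate 1 and without replicate 3 limma took the whole spread from all features. The distance between a gene's own values did not enter those p-values, so these gains and losses also reflect a changed estimate of spread. The mean ratios themselves stayed above 0 whichever replicate was left out, between 0.51 and 1.00 for RPL17A, 0.43 and 0.87 for RPL17B, 0.56 and 0.83 for RPL19B, and 0.47 and 0.65 for RPL35A.

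Replicate 1 was the highest of the 3 for the introns of 8 of the 9 rim genes, all but RPL31B. Over all complete intron features it was the highest for 33.1%. The same held for exons, where replicate 1 was the highest for 9 of the 10 rim genes, all but RPL17A, against 33.9% of all exon rows with complete values. The median intron ratio of the rim genes was 0.78, 0.38 and 0.28 in replicates 1, 2 and 3, and that of other large subunit genes was 0.58, 0.41 and 0.45. The rim genes minus the other large subunit genes gave 0.19, -0.029 and -0.17, a mean of -0.0016 ± 0.18 (SD, n = 3), so the lists differed by less than the spread between replicates. Against small subunit genes the difference was -0.0051 ± 0.20, and against all other genes it was 0.83, 0.20 and 0.015, a mean of 0.35 ± 0.43 (SD, n = 3). The median of the rim genes thus lay above that of all other genes, a list without ribosomal protein genes, in 3 of 3 replicates. The gap was largest in replicate 1 and only 0.015 in replicate 3. The part of a pair of cultures or its arrays in these values was not tested.

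**Figure D2:**
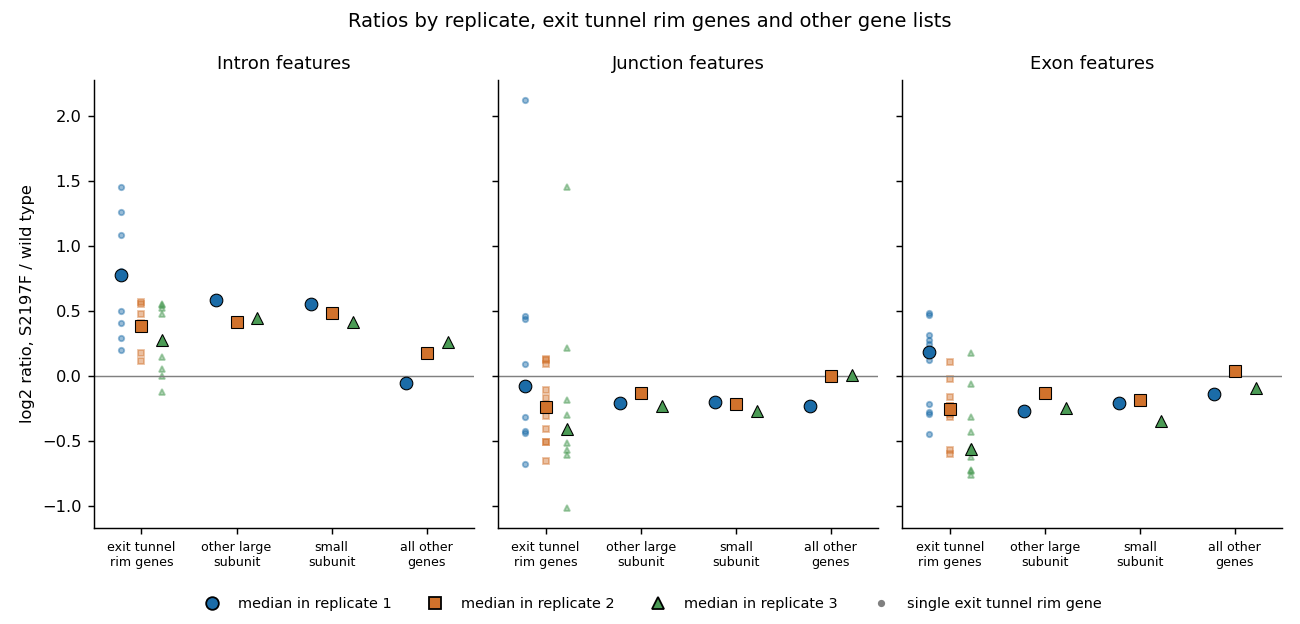
Median log2 ratio of S2197F to wild type in each replicate (large symbols, vertical axis) for the rim genes and 3 lists of other genes, in panels for intron, junction and exon features, with the single rim genes as small symbols. The rim genes' intron medians are 0.78, 0.38 and 0.28 and their exon medians 0.18, -0.25 and -0.56 in replicates 1 to 3, a wider spread than in the other lists.

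Taking the difference between features of the same gene and replicate removes any offset that an array gives to all of its features. Intron signal relative to exon signal was higher in S2197F for 5 of the 9 rim genes: both RPL17 copies, both RPL19 copies and RPL35A. In the table as a whole, 29.3% of 246 features passed in this direction and 0 in the other. The share was 55.3% of 47 features of other large subunit genes, 60.9% of 46 features of small subunit genes and 9.03% of 144 features of all other genes. For RPL17 and RPL19 the copies had nearly the same size of difference. It was 1.75, 0.50 and 1.28 for RPL17A, a mean of 1.18 ± 0.26 (SE, n = 3; limma adjusted p = 0.0032). It was 1.54, 0.98 and 1.10 for RPL17B, a mean of 1.21 ± 0.23 (limma adjusted p = 0.0013). All 6 of these values were positive.

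For RPL19A the intron minus exon difference was 1.25, 1.13 and 1.00, a mean of 1.13 ± 0.23 (SE, n = 3; limma adjusted p = 0.0018), with little spread between replicates. For RPL19B it was 1.30, 0.88 and 1.14, a mean of 1.11 ± 0.23 (limma adjusted p = 0.0022). RPL35A had 0.29, 0.63 and 1.07, a mean of 0.67 ± 0.24 that passed narrowly (limma adjusted p = 0.043). RPL35A lost its call when any 1 of the 3 replicates was left out, and all 5 calls were lost without replicate 1, when the adjusted p was 0.077 for RPL17B, RPL19A, RPL19B and RPL35A and 0.096 for RPL17A. In that fit 0 of 240 features passed in the whole table, so the loss was not limited to these genes.

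The other genes did not pass for intron minus exon. RPL31B had 0.049, 0.61 and 0.57 (0.41 ± 0.23, SE, n = 3; limma adjusted p = 0.20). RPL35B had 0.024, 0.44 and 0.37 (0.28 ± 0.23; limma adjusted p = 0.37), and RPL31A had -0.11, 0.013 and 0.76 (0.22 ± 0.24; limma adjusted p = 0.49). In these 3 genes replicate 1 was the lowest, and their exon ratios were highest there. RPL26A had 0.12, 0.54 and -0.30 (0.12 ± 0.24; limma adjusted p = 0.73). Intron minus exon was above 0 in all 3 replicates for 7 of the 9 rim genes, against 54.2% of complete features, and below 0 in all 3 for 0 of the 9, against 5.83%. It was above 0 in all 3 for 39 of 47 features of other large subunit genes and 40 of 46 of small subunit genes. Among all other genes the count was 44 of 138. The median of the 9 means was 0.67, against 0.68 for other large subunit genes, 0.75 for small subunit genes and 0.26 for all other genes.

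Intron signal relative to junction signal was higher in S2197F for 1 of the 9 rim genes, RPL17A, and lower for 0. Of all 247 features tested, 21.1% were higher and 1 feature (0.405%) was lower. The share of higher features was 35.4% of 48 for other large subunit genes, 37.8% of 45 for small subunit genes and 11.7% of 145 for all other genes. The RPL17A difference was 2.13, 0.88 and 1.57, a mean of 1.53 ± 0.29 (SE, n = 3), or 2.88-fold (limma adjusted p = 5.37e-05). It ranked 7 of 247 from the top. Its intron ratio was positive and its junction ratio negative in every replicate. In this fit limma took nearly all of the spread from all features. The SE and p-value thus hardly reflect the SD of 0.63 between the RPL17A replicates. Without replicate 3 the difference was 1.51 and no longer passed (adjusted p = 0.098), in a fit where 2 of 240 features passed in all.

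RPL17B came close to the threshold on this measure but had only 2 values, 1.58 and 0.25, a mean of 0.92 ± 0.35 (limma adjusted p = 0.051). This SE also came nearly all from other features, while the SD of the 2 values was 0.94. RPL19B had 1.17, 0.44 and 0.34, a mean of 0.65 ± 0.28 (SE, n = 3; limma adjusted p = 0.086). RPL35A had 0.31 and 0.83 in replicates 2 and 3, a mean of 0.57 ± 0.35 (limma adjusted p = 0.24). None of these values was negative. RPL31B, RPL31A and RPL35B had means of 0.51, 0.32 and 0.25. RPL19A had -1.32 and 1.07, and RPL26A had 0.83, 0.54 and -1.57, with means of -0.12 and -0.067. Of 6 rim genes with complete values, 4 were above 0 in all 3 replicates, against 57.5% of complete features, and 0 were below 0 in all 3, against 1.87%. Above 0 in all 3 were 33 of 45 complete features of other large subunit genes and 33 of 43 of small subunit genes. Among all other genes the count was 53 of 120. The median of the 9 means was 0.51, against 0.61 for other large subunit genes, 0.68 for small subunit genes and 0.24 for all other genes.

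**Figure D3:**
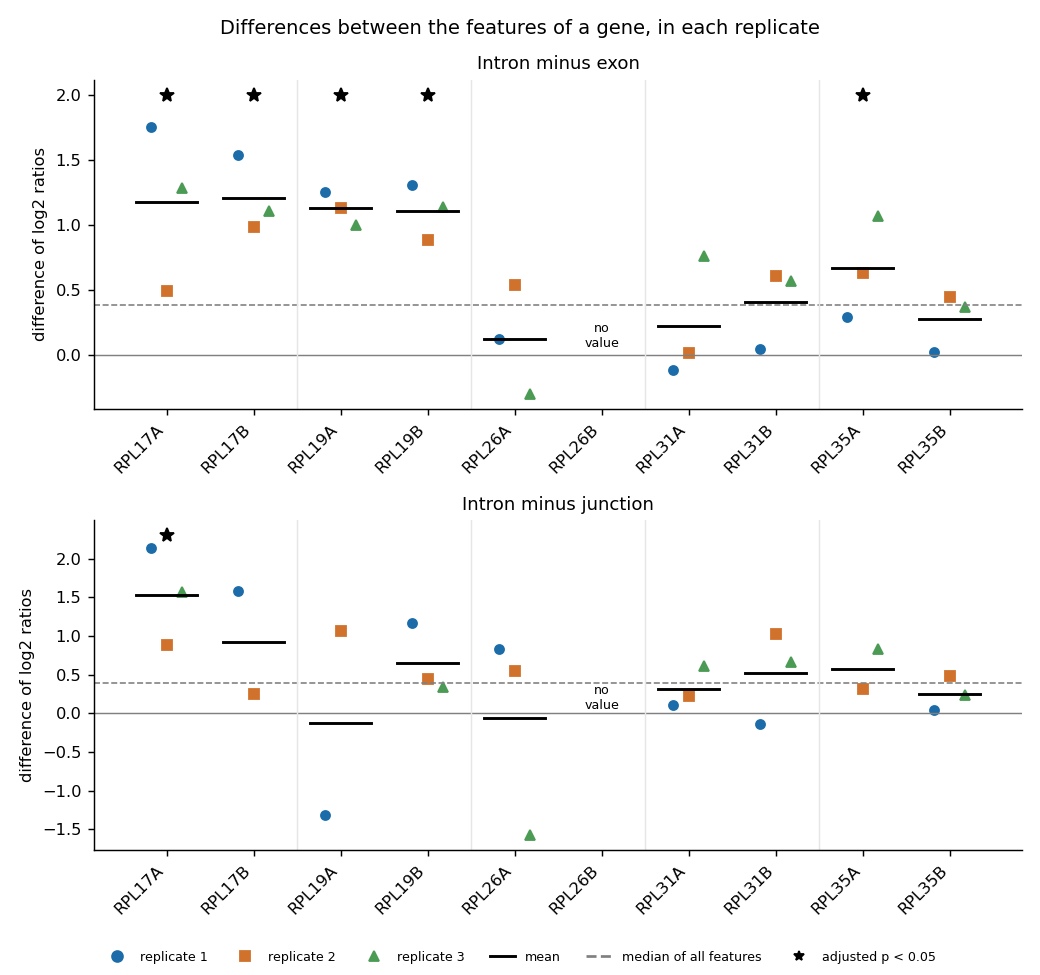
Differences between the log2 ratios of 2 features of the same gene (vertical axes), intron minus exon above and intron minus junction below, for each rim gene. Symbols are replicates, bars means, the dashed line the median of all features, and stars a limma adjusted p under 0.05. Stars stand over RPL17A, RPL17B, RPL19A, RPL19B and RPL35A for intron minus exon and over RPL17A alone for intron minus junction.

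Junction signal passed the test for 0 of the 10 rim genes. Of all 248 junction features, 0 were higher and 1 (0.403%) was lower by limma's adjusted p. At an unadjusted p under 0.05, 2 rim genes were lower and 0 higher, and among all junction features 29 were lower and 4 higher. The 2 were RPL17A and RPL26B, which were also the ones below 0 in all 3 replicates, among 7 rim genes with complete junction values, against 29.7% of 219 such features in all. Junctions above 0 in all 3 replicates numbered 0 of the 7, against 6.85%. The RPL17A junction ratios were -0.68, -0.41 and -1.02, a mean of -0.70 ± 0.18 (SE, n = 3; limma adjusted p = 0.19). The RPL26B junction ratios were -0.44, -0.51 and -0.57, a mean of -0.50 ± 0.15 (limma adjusted p = 0.21), with an SD of 0.067 between replicates.

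For 2 other junctions the replicates lay far apart. The RPL19A junction gave 2.13 and -0.51, a mean of 0.81 ± 0.54 (SE, n = 2; limma adjusted p = 0.57). The RPL26A junction gave -0.42, -0.17 and 1.45, a mean of 0.29 ± 0.33 (SE, n = 3; limma adjusted p = 0.76). In both genes the replicates disagreed in sign. The remaining junctions had means between -0.24 and 0.088. RPL31B had 0.44, -0.65 and -0.52. RPL31A had 0.094, -0.11 and -0.61, and RPL35B had 0.46, -0.31 and -0.19. For these 3 genes replicate 1 was positive and the others negative. RPL17B had -0.32 and 0.13, RPL35A had 0.09 and -0.30, and RPL19B had -0.077, 0.13 and 0.21. The median of the 10 means was -0.099, and that of all junction features was -0.10.

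Exon signal, the reading of total mRNA, also passed for 0 of the 10 rim genes, as for 0 of 234 exon features in the table. At an unadjusted p under 0.05, 2 rim genes were lower (RPL17B and RPL19A) and 0 higher, against 26 lower and 4 higher of all exon features. The exons of the RPL17 and RPL19 pairs were below 0 in all 3 replicates, 4 of the 10 genes, a condition met by 33.3% of all exon features, and 0 of the 10 were above 0 in all 3, against 6.41%. Exons were below 0 in all 3 for 22 of 45 other large subunit genes and 22 of 45 small subunit genes. Among all other genes the count was 30 of 134. RPL19A had -0.44, -0.57 and -0.72, a mean of -0.58 ± 0.16 (SE, n = 3; limma adjusted p = 0.34). RPL17B had -0.28, -0.60 and -0.63, a mean of -0.50 ± 0.16 (limma adjusted p = 0.34). Both means were among the lower ones of the 10, and neither passed.

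RPL19B had exon ratios of -0.22, -0.31 and -0.58 (-0.37 ± 0.16, SE, n = 3; limma adjusted p = 0.39), and RPL17A had -0.29, -0.020 and -0.73 (-0.35 ± 0.18; limma adjusted p = 0.43). The exons of the other 6 genes had means between -0.14 and 0.099 and adjusted p of 0.79 or more. RPL35A had 0.48, -0.23 and -0.54, and RPL35B had 0.47, -0.27 and -0.31. RPL31A had 0.32, 0.11 and -0.76, and RPL31B had 0.24, -0.23 and -0.43. In these 4 genes replicate 1 was positive and replicate 3 negative. RPL26A had 0.28, -0.16 and 0.18, and RPL26B had 0.13, -0.29 and -0.058. The median of the 10 means was -0.13, and that of all exon features was -0.12.

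Junction signal relative to exon signal passed for 0 of the 10 rim genes and for 0 of 244 features in all, of which 5 upward and 6 downward had an unadjusted p under 0.05. RPL19A had 2.57 and 0.06, and its mean of 1.32 ± 0.55 (SE, n = 2; limma adjusted p = 0.61) ranked 1 of 244 through its replicate 1 junction. RPL17A had -0.39, -0.39 and -0.28, and RPL26B had -0.56, -0.21 and -0.51. These 2 were negative in all 3 replicates, 2 of the 7 complete genes, against 15.7% of all complete features. RPL19B, with 0.14, 0.44 and 0.79, was positive in all 3, making 1 of 7, against 18.1%.

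The 2 copies of a protein were compared directly, as copy A minus copy B within each replicate, over all ribosomal protein pairs in the table. No pair passed for any feature: 0 of 44 intron pairs, 0 of 44 junction pairs and 0 of 45 exon pairs had a limma adjusted p under 0.05, the rim pairs included. At an unadjusted p under 0.05 there were 5 intron, 3 junction and 2 exon pairs, with no rim pair among them. The call on RPL35A without one on RPL35B, and on RPL19B without one on RPL19A, is therefore no shown difference between copies.

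For RPL35 the intron difference was 0.28, 0.23 and 0.47, a mean of 0.33 with a 95% interval of -0.11 to 0.76 (limma adjusted p = 0.46), which spans ratios of 0.93 to 1.69 between the copies. For RPL19 it was -0.28, -0.013 and -0.28, a mean of -0.19 (interval -0.63 to 0.25; limma adjusted p = 0.64). The A copy of RPL35 was the higher in 3 of 3 replicates, and the A copy of RPL19 was the lower in 3 of 3. For RPL17 it was 0.19, 0.091 and 0.071, a mean of 0.12 (interval -0.31 to 0.54; limma adjusted p = 0.80). For RPL31 it was -0.089, -0.26 and -0.14, a mean of -0.16 (interval -0.59 to 0.26; limma adjusted p = 0.69). Each of these 4 pairs thus kept 1 sign in all 3 replicates, with differences that the intervals do not set apart from 0.

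The RPL17 introns had similar ratios within each replicate. The 2 copies lay 0.071 to 0.19 apart within a replicate, while the values spanned 0.98 over replicates for RPL17A and 0.88 for RPL17B. The size of the intron difference had a median of 0.18 over the 4 rim pairs (0.12 to 0.33) and of 0.24 over the other 40 pairs (0.0078 to 0.99). The order was the opposite for junctions, with medians of 0.45 over the 5 rim pairs and 0.22 over 39 other pairs. Averaging the junction sizes in single replicates narrowed this gap, with medians of 0.45 and 0.34. The RPL17, RPL19 and RPL35 junction differences rested on only 2 values each. For exons the medians were 0.15 over the 5 rim pairs and 0.18 over 40 other pairs. For intron minus junction they were 0.40 over the 4 rim pairs and 0.34 over 39 other pairs. That last order was not stable, as averaging the sizes in single replicates gave medians of 0.49 and 0.52. Among the other 40 pairs the 3 largest intron differences were those of RPL18 (0.99, adjusted p = 0.13), RPS14 (-0.91, adjusted p = 0.14) and RPS19 (-0.87, adjusted p = 0.13), all by limma. The intron difference of each of the 4 rim pairs was smaller in size than these 3.

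Junction differences between copies were wider. For RPL26 the difference was 0.015, 0.34 and 2.02, a mean of 0.79 (interval -0.029 to 1.61; limma adjusted p = 0.47). Without replicate 1 it was 1.18 and passed (adjusted p = 0.0027), in a fit of 2 values that takes its spread from all pairs, so that the distance between 0.34 and 2.02 did not enter it. In that fit 4 of 40 pairs (10%) passed. For RPL19 the values were 2.20 and -0.64, a mean of 0.78 (interval -0.58 to 2.14; limma adjusted p = 0.55). For RPL17 they were -0.36 and -0.54, a mean of -0.45 (interval -1.02 to 0.12; limma adjusted p = 0.47). The RPL17 values had the same sign, and those of RPL19 did not. RPL31 and RPL35 had means of 0.035 and 0.14, with adjusted p of 0.98 and 0.89.

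Exon differences between copies had means of 0.15 for RPL17, -0.21 for RPL19, 0.17 for RPL26, 0.027 for RPL31 and -0.061 for RPL35, with adjusted p between 0.77 and 0.95. Single replicates differed more: the RPL17 values were -0.016, 0.58 and -0.11, and the RPL31 values 0.074, 0.34 and -0.33. In both pairs the sign varied between replicates. RPL26A was above RPL26B in 3 of 3 replicates (0.15, 0.13 and 0.24), and RPL19A below RPL19B in 3 of 3 (-0.23, -0.26 and -0.14). The RPL35 copies were within 0.0084 to 0.23 of each other, while each spanned more over replicates, 1.03 for RPL35A and 0.79 for RPL35B. Whether the exon features tell the copies apart is not known, so small exon differences do not show that the copies behaved alike. For intron minus junction, 0 of 43 pairs passed, and the 4 rim pairs had mean differences between copies of 0.59 for RPL17, -0.93 for RPL19, -0.20 for RPL31 and 0.21 for RPL35, with adjusted p of 0.68 or more. Only 2 values each were present for RPL17 (0.56 and 0.63), RPL19 (-2.48 and 0.63) and RPL35 (-0.17 and 0.59). In this fit limma took the spread from all pairs, so the distance between the values of a single pair did not enter its p-value. At an unadjusted p under 0.05 there were 2 pairs in the table on this measure.

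**Figure D4:**
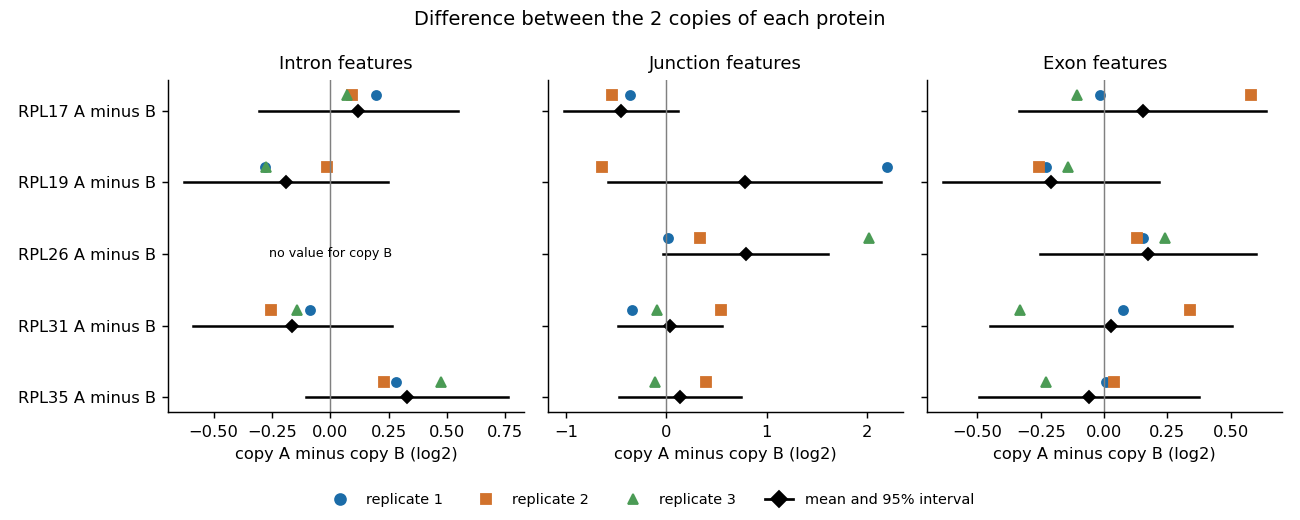
Copy A minus copy B of the log2 ratio (horizontal axes) for each of the 5 proteins, in panels for intron, junction and exon features. Coloured symbols are replicates, and black diamonds with lines are means with 95% intervals from limma. All 14 intervals span 0.

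Other genes of the exit region gave values in the same range. Of 4 further genes on the list of tunnel and rim proteins, the table held 2, RPL25, for the main docking protein of the port, and RPL39, for a small protein that lines the tunnel. Of 23 genes for factors that dock at the port (chaperones, N-terminal modifying enzymes, signal recognition particle and translocon subunits), it held 0. The RPL25 intron ratios were 0.56, 0.30 and 0.35, a mean of 0.40 ± 0.16 (SE, n = 3; limma adjusted p = 0.10). The RPL39 intron gave 0.77, 0.38 and -0.043, a mean of 0.37 ± 0.19 (limma adjusted p = 0.22). Neither intron passed, and neither gene passed for junction or exon (adjusted p of 0.48 or more).

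The rows outside the rim genes whose 9 values (3 features in 3 replicates) lay nearest to the mean of each pair all belonged to small subunit genes. They were RPS10B for RPL17 (root mean square distance 0.296 on the log2 scale), RPS8B for RPL19 (0.239), RPS23A for RPL26 (0.244), RPS6B for RPL31 (0.186) and RPS6A for RPL35 (0.145). The median distance over the 204 rows compared was 0.49 to 0.65. The second nearest rows for RPL26 and RPL31 lay almost as near and were not of small subunit genes: PMI40, for a mannose phosphate isomerase, for RPL26 (0.253) and RPL42B, a large subunit gene, for RPL31 (0.197), both named after their values were seen. Where a copy had no value the profile is that of the other copy alone, which holds for the RPL26 introns (RPL26A), for the junction in replicate 3 of RPL17 (RPL17A) and RPL19 (RPL19B), and for the junction in replicate 1 of RPL35 (RPL35B). All of these values come from the same 6 arrays.

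The agreement between replicates sets what can be read from each feature. Across all features of the table, the ratios of different replicates correlated at 0.41 to 0.64 for introns (Pearson, 245 to 251 features), 0.014 to 0.39 for exons (234 features) and 0.0015 to 0.23 for junctions (219 to 241 features). These are correlations across features of the same arrays, and features are not independent replicates. In the separate deposited single-array values, which name no genes, an array and its dye exchange correlated at 0.031, 0.19 and 0.30 in replicates 1, 2 and 3, and the number of missing spots ran from 86 to 2624 of 9216, with the most on an array of replicate 2. The direction of these single-array values is not known, and their spots were not filtered here. Their correlations therefore do not measure the agreement of the tested ratios. Across ribosomal protein pairs, the A and B copies correlated at 0.037 to 0.19 within a replicate for introns, 0.076 to 0.42 for exons and -0.21 to 0.40 for junctions (Pearson, 40 to 45 pairs).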

How the data were processed

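The values tested are the authors' deposited log ratios, with the mutant on top, read here as log2. Per the labels, an array and its dye exchange were combined by the authors into 1 value per biological replicate for each exon, intron and junction feature. The image analysis, background correction, spot filter, centring and the base of the logarithm used by the authors were not given in the sources used here, so every fold change depends on base 2. The table's column headers put the mutant over wild type. The table has 253 rows for 239 genes. A second deposited table gives log2 ratios of single arrays (9216 spots each), with array medians of -0.81 to 0.22 and a ceiling of 16.61. Its direction and centring are not known, its spots carry no gene names, and it served only for the checks of arrays. A deposited summary table was not used.

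Each feature with at least 2 replicate values was tested against 0 with limma 3.58.1 in R 4.3.3 (one-sample model, empirical Bayes, two-sided). The 3 feature classes shared 1 fit, adjusted within each class by the Benjamini-Hochberg method. Each difference between features had its own fit. Copy differences were fitted over 45 ribosomal protein pairs, of which 5 are rim pairs. A feature deposited in several rows with the same values (15 features) entered the fit of the 3 classes once, a choice made after the files were seen. The fits of differences between features used every row, so repeated values could enter those fits and their shares more than once. The scripts were tested on simulated data. All 10 gene identifiers matched RefSeq symbols. The precision is limited by the 3 replicates. The genes and lists (rim genes, 4 further tunnel and rim genes, 23 docking factor genes, other large subunit genes, small subunit genes, all other genes) were chosen with earlier results of these data known. The genes named are all 10 rim genes, members of the tunnel and docking lists, the 3 other pairs with the largest intron difference, and the nearest row to each pair. Alternatives were centring on the exon medians, repeated features kept, a separate fit for each class, complete features only, a robust variance prior, all A and B gene pairs, and leaving out each replicate.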

Additional observations from a re-analysis of the deposited data

How the results depend on the processing

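The counts of rim genes past the threshold stayed within 1.5 times under centring, repeated features kept (chosen after seeing the data), separate fits, complete features only, a robust variance prior and all A and B gene pairs. Leaving out 1 replicate in turn gave 0 to 4 rim genes for introns, 0 to 4 for intron minus exon, 0 to 1 for intron minus junction and 0 to 1 for junction differences between copies, and 0 throughout for the other comparisons. Counts over the whole table fell too, to 2 of 245 for introns without replicate 2, 0 of 240 for intron minus exon without replicate 1 and 2 of 240 for intron minus junction without replicate 3, against 59 of 251, 72 of 246 and 53 of 247 with all replicates. Centring each replicate on its exon median (-0.15, -0.068 and -0.18) gave positive means for exons of RPL26B (0.058), RPL31A (0.020), RPL35A (0.036) and RPL35B (0.097) and for junctions of RPL17B (0.019), RPL35A (0.017) and RPL35B (0.12), all negative before and none past the threshold. The added shift of each replicate is the cause by construction. Over all 251 intron features that centring called 92, against 59 without it, and 5 of the 9 rim genes, RPL19A being the added one.

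Leaving out 1 replicate turned the sign of 18 means, none past the threshold. Exon means ranged from -0.17 to 0.034 for RPL26B, -0.33 to 0.21 for RPL31A, -0.33 to 0.0052 for RPL31B, -0.39 to 0.13 for RPL35A and -0.29 to 0.10 for RPL35B. Junction means ranged from -0.30 to 0.64 for RPL26A and -0.25 to 0.14 for RPL35B. The RPL26A differences ranged from -0.51 to 0.69 for intron minus junction, -0.089 to 0.33 for intron minus exon and -0.35 to 0.63 for junction minus exon. Intron minus exon ranged from -0.050 to 0.39 for RPL31A, and junction minus exon from -0.25 to 0.053 for RPL31B and -0.027 to 0.057 for RPL35B. Copy A minus copy B ranged from -0.062 to 0.28 (RPL17), -0.13 to 0.21 (RPL31) and -0.11 to 0.024 (RPL35) for exons, -0.22 to 0.22 for the RPL31 junction and -0.42 to 0.10 for RPL31 intron minus junction. Each of these means came from replicate values of both signs, so leaving out 1 value could turn it. Why the replicates differed was not tested. Genes with 2 junction values drop out when 1 of them is removed. Junction and exon features, whose replicates agree least, limit what can be said of mature and total mRNA.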
